A study of Capra hircus with 14 samples.

Results

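A set of inflammatory genes was followed through the conversion of goat fibroblasts toward mammary epithelial cells: the chemokines CXCL8, CCL2 and CCL20, the colony-stimulating factors CSF2 and CSF3, the interleukins IL1A and IL1B, the prostaglandin synthase PTGS2, and the NF-kB inhibitors NFKBIA and TNFAIP3. Rows were matched to these names, and the names themselves were chosen with earlier results of these data known. Of the 10 names, 9 were found among 30277 genes. The name CCL2 was not found, and a gene listed only by its locus, LOC102175889, is described there as C-C motif chemokine 2 and is reported separately. Of the 9 genes, 8 had enough counts to be tested, and IL1B did not.

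Cells were wild-type goat (Capra hircus) cells in 7 groups of 2 libraries, 14 in all. The day 0 group, GEF, was labelled as fibroblasts and grown in serum-containing DMEM, and the groups of days 1, 2, 3, 4, 6 and 8, all called CiMEC, had been moved to an R induction medium of small molecules that was renewed at 2-day intervals. Plates were coated with Matrigel, and the induced cells were not passaged before day 8. The sources used here do not list the medium's ingredients, and no later library without it was analysed, so the medium, its renewal and time in culture cannot be told apart.

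NF-kB is a family of transcription factors held in the cytoplasm by inhibitor proteins of the IkB family. Signals from TNF, interleukin-1 or Toll-like receptors activate a kinase complex that marks the inhibitor for destruction, and the freed factor enters the nucleus and switches on chemokines, cytokines and enzymes of inflammation. It also switches on its own inhibitors: NFKBIA encodes IkB-alpha, which binds the factor again, and TNFAIP3 encodes A20, a ubiquitin-editing enzyme that damps signalling upstream of the kinase. In the mammary gland, epithelial cells release chemokines that draw in neutrophils during infection, and cultured fibroblasts release many of the same factors when stimulated.

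Library totals ran from 20515126 to 24746010 estimated counts. Levels are given as CPM, that is, counts brought to one library size. The floor of detection was taken as 3 counts over both libraries of a day. Changes are log2 fold changes ± standard error (SE) from edgeR's quasi-likelihood test, and a gene was called where its adjusted p was under 0.05 over the 15712 genes tested. Both libraries of a day were close (Spearman 0.995 to 0.997). The labels do not tell whether they came from separate cultures, so the p-values rest on a spread that may be technical. Day 0 held the widest pair, at 8.12 chi-square units per degree of freedom against 1.8 to 4.58 on the other days. Day 0 libraries held transcripts of fibroblast markers (10 genes, summed 33790 to 34290 CPM). They also held transcripts from a list of 9 basal epithelial markers that includes KRT5 and KRT14 (summed 9999 to 10950 CPM). That sum, which does not tell the genes apart, was 3898 to 3916 CPM at day 1 and 43920 to 44800 CPM at day 8.

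Most of the set was lower at the end than at the start, and 5 of the genes fell by 2 different routes. CXCL8 and PTGS2 rose at day 1 before they fell, while CCL20, CSF2 and CSF3 fell at once. IL1A moved up and down, NFKBIA fell to day 2 (-0.95 ± 0.0596) and was not called at day 8, and TNFAIP3 ended lower. At day 8 against day 0, 0 of the 8 tested genes were higher, 7 were lower and 1 (NFKBIA) was not called, beside 36.0% of all tested genes higher and 35.0% lower. Of the 7, 5 had a fitted fall of at least 2-fold, beside 12.7% of all tested genes. The median change of the 8 was -4.60, also with CSF2 set at its bound, against 0.02 over all tested genes. The F test over all days called 8 of 8, but it also called 92.4% of all tested genes. RNA came from whole cultures, so fewer cells that make a transcript and less of it per cell cannot be told apart.

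**Figure D1:**
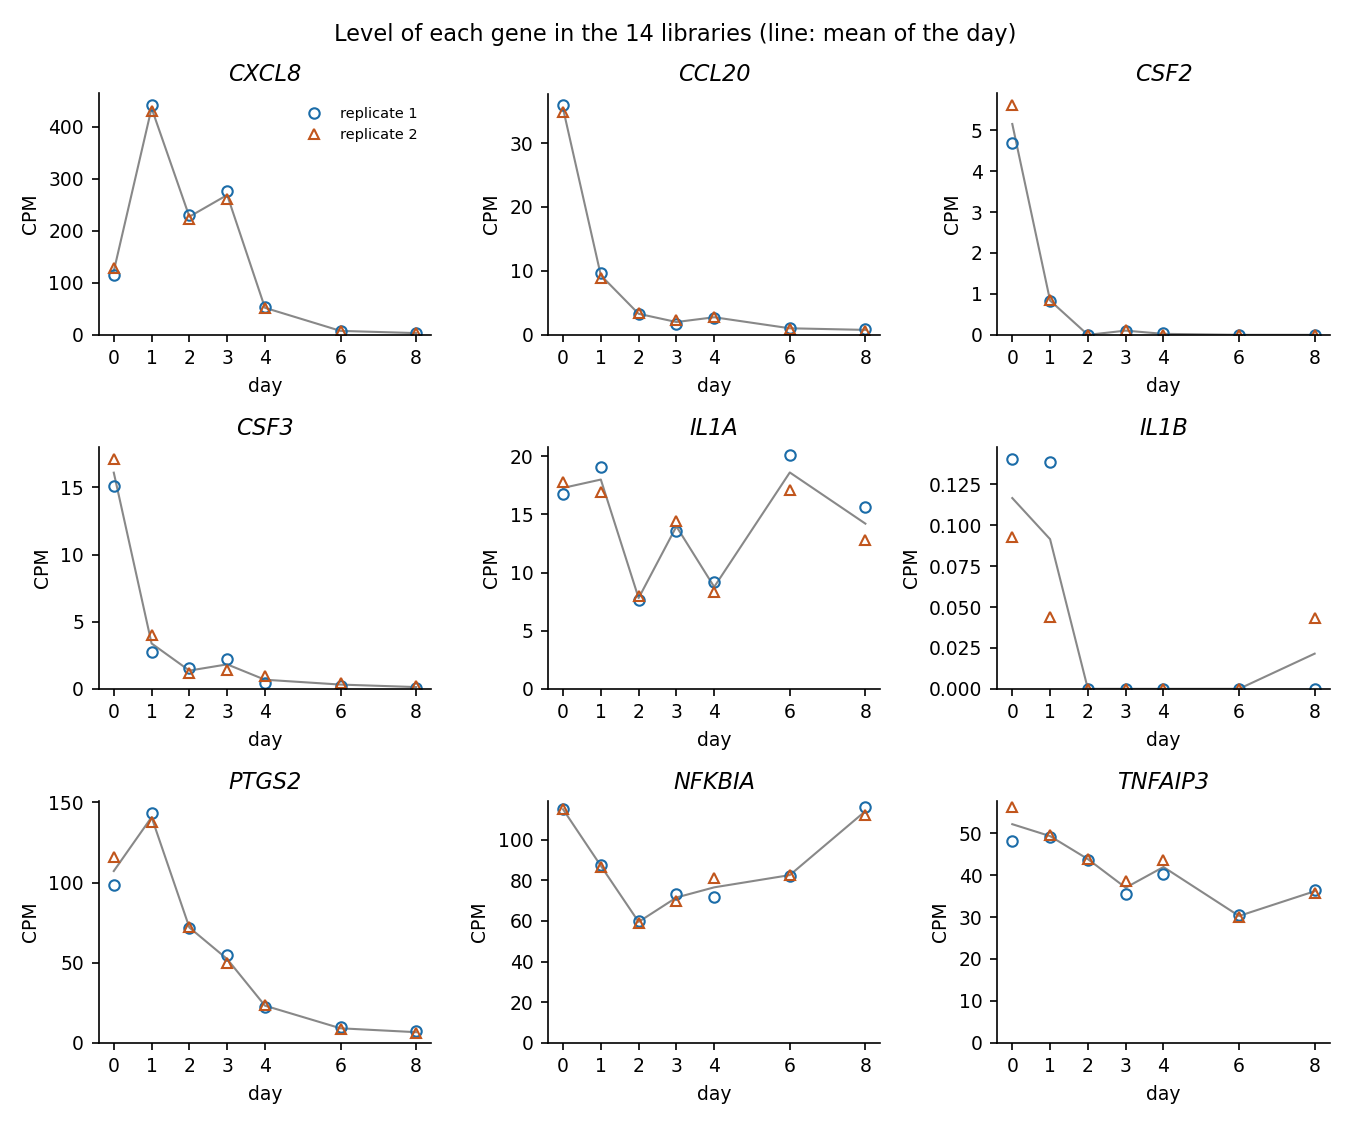
CPM (vertical axis, linear from 0) against day (horizontal axis) for the 9 genes found, with replicate 1 as circles, replicate 2 as triangles and a line through the mean of the day. CXCL8 peaks at 435.6 CPM on day 1, CCL20, CSF2 and CSF3 are highest at day 0, and NFKBIA is near 115 CPM at both ends.

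CXCL8 encodes interleukin-8, the ligand that draws in neutrophils through CXCR1 and CXCR2. Its libraries held 115.9 and 129.2 CPM at day 0, 441.8 and 429.4 at day 1, 231.1 and 223 at day 2, 277.2 and 260.3 at day 3, 52.79 and 51.04 at day 4, 7.61 and 7.571 at day 6, and 3.134 and 3.573 at day 8. Both day 1 libraries were above all others, both day 8 libraries below all others, and no 2 days overlapped. CXCL8 rose 3.56-fold in the first day (1.83 ± 0.0562, adjusted p = 2.04e-18, edgeR). It was still above day 0 at day 2 (0.89 ± 0.0562) and at day 3 (1.13 ± 0.0559), and the small rise from day 2 to day 3 was itself called (0.24 ± 0.0542, adjusted p = 0.000774). The steep part of the fall came next: 5.18-fold from day 3 to day 4 (-2.37 ± 0.0602) and 6.84-fold from day 4 to day 6 (-2.77 ± 0.0843). At day 8 the level was 36.5-fold below day 0 (-5.18 ± 0.0908, adjusted p = 7.64e-24) and 130-fold below day 1 (-7.01 ± 0.0868). Ordered by level, the days ran 1, 3, 2, 0, 4, 6 and 8, and all 6 neighbouring pairs were called.

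CCL20 encodes the ligand of CCR6, a receptor of dendritic cells and lymphocytes. It stood at 35.99 and 34.84 CPM at day 0, 9.674 and 8.937 at day 1, 3.186 and 3.397 at day 2, 1.675 and 2.334 at day 3, 2.635 and 2.866 at day 4, 1.146 and 0.9013 at day 6, and 0.9023 and 0.6457 at day 8. Day 0 was far above every later library, and day 1 above every library after it. Where CXCL8 rose, CCL20 fell 3.81-fold in the first day (-1.93 ± 0.114, adjusted p = 3.84e-13), and it fell again from day 1 to day 2 (-1.50 ± 0.153). By day 8 it was 45.8-fold below day 0 (-5.52 ± 0.171, adjusted p = 5.37e-19). From day 2 on the order was flatter: days 2 and 4, days 4 and 3, and days 6 and 8 did not differ beyond the threshold (adjusted p = 0.304, 0.0707 and 0.296). With day 3 replicate 2 left out, day 4 was called above day 3 (0.71, adjusted p = 0.0259, range 0.0259 to 0.428).

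The locus described as C-C motif chemokine 2, LOC102175889, was singled out after its values were seen. That chemokine draws in monocytes through CCR2. It held 917.8 and 877.2 CPM at day 0, 55.55 and 59.51 at day 1, 69.38 and 75.63 at day 2, 56.12 and 54.03 at day 3, 52.08 and 48.5 at day 4, 25.63 and 26.99 at day 6, and 16.48 and 19.07 at day 8. Most of the fall therefore lay between the day 0 and day 1 libraries, at 15.6-fold (-3.96 ± 0.0648, adjusted p = 2.83e-23). Days 1 to 4 stayed between 48.5 and 75.63 CPM, with a called rise from day 1 to day 2 (0.33 ± 0.0654). At day 8 the level was 50.5-fold below day 0 (-5.65 ± 0.0737).

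Of the chemokines that the table names only by description, 15 loci were listed after the file was seen. Of these, 8 had 0 counts in every library, among them those described as C-C motif chemokines 3, 4, 8, 14, 15 and 18. All 6 that could be tested were lower at day 8 than at day 0, beside 35.0% of all tested genes. LOC102181582, described as C-X-C motif chemokine 6, lies next to CXCL8 in the RefSeq gene order (assembly ARS1.2). Its libraries held 1717 and 1842 CPM at day 0, 4865 and 4862 at day 1, 4815 and 4463 at day 2, 3003 and 2726 at day 3, 2336 and 2535 at day 4, 1010 and 940.2 at day 6, and 529.4 and 498.1 at day 8. Like its neighbour it rose in the first day (1.45 ± 0.0568, adjusted p = 1.73e-16), but it was still above day 0 at day 4 (0.45 ± 0.0559), when CXCL8 was below day 0 (-1.24 ± 0.061). At day 8 it was 3.46-fold below day 0 (-1.79 ± 0.0579). Per kilobase of gene length it was the most abundant chemokine drawn in the plot of levels per length on every day, with 3120 CPM per kb at day 1 against 291 for CXCL8 and 53.8 for LOC102175889.

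Along the same stretch of gene order, 3 consecutive loci described as growth-regulated proteins, which are further neutrophil-attracting chemokines, fell over the course. From day 0 to day 8, LOC102182395 went from 141.8 ± 3.35 to 28.9 ± 0.568 CPM (SD, n = 2), LOC102182683 from 74.37 ± 0.194 to 6.822 ± 0.09, and LOC102182115 from 36.73 ± 3.72 to 5.089 ± 0.413. Their day 8 changes against day 0 were -2.30 ± 0.0699, -3.45 ± 0.121 and -2.85 ± 0.129. At day 1 the first pair was already lower (-0.42 ± 0.062 and -0.74 ± 0.095), and LOC102182115 was not called at 0.22 ± 0.0982 (adjusted p = 0.0513, with a range of 0.0149 to 0.359 over the alternatives). Neighbouring copies such as these may share reads, so the division of counts among them is uncertain.

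**Figure D2:**
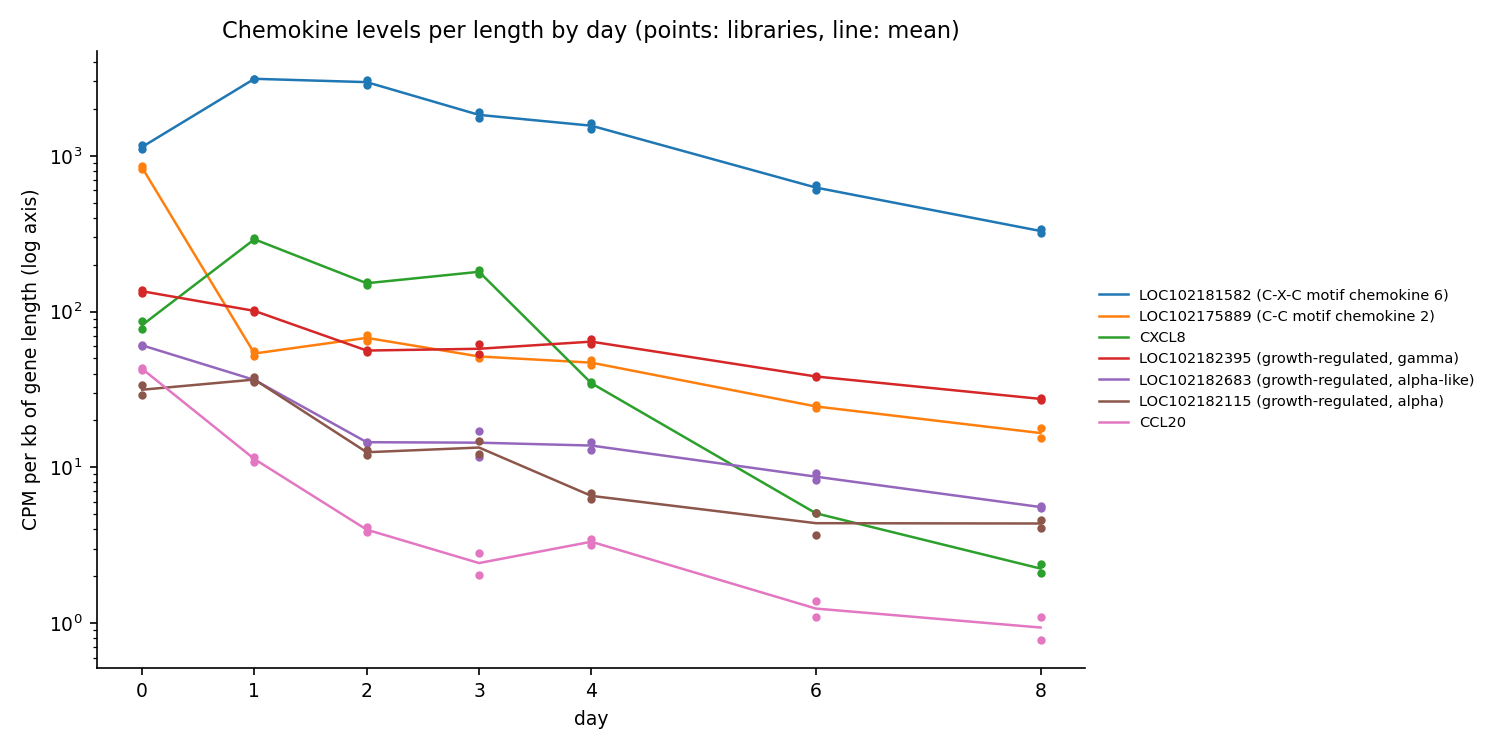
CPM per kilobase of gene length (log axis) against day for CXCL8, CCL20 and 5 chemokine loci named by description; points are libraries and lines the mean of each day. CXCL8 and LOC102181582 rise at day 1 (to 291 and 3120 CPM per kb), LOC102175889 drops from 839 to 53.8, and by day 8 CXCL8 is at 2.24, below the 3 growth-regulated loci.

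Chemokines outside that description did not share one direction. Of 10 tested in a list of other chemokines, 4 were higher, 2 lower and 4 not called at day 8 against day 0. The shares of all tested genes were 36.0% higher and 35.0% lower. CXCL14, a chemokine made by many epithelia, fell from 40.66 ± 2.33 to 9.889 ± 0.22 CPM in the first day (-2.04 ± 0.0916) and then climbed to 190.1 ± 0.956 at day 8 (2.23 ± 0.0696 against day 0, adjusted p = 6.12e-19). CXCL12, the stromal ligand of CXCR4, named here after its values were seen, rose from 16.11 ± 0.645 to 60.76 ± 1.18 CPM at day 8 (1.91 ± 0.0706). CCL17 was lower at day 8 (-2.88 ± 0.247), and CCL26 was higher but scarce, at 0.8104 ± 0.0715 CPM (2.28 ± 0.594). CCL27 was called higher (2.26 ± 0.857, adjusted p = 0.0221), but not with day 0 replicate 1 left out (1.30, adjusted p = 0.208) or with day 8 replicate 2 left out (0.68, adjusted p = 0.639), within a range of 0.00405 to 0.639 over its alternatives. CXCL9, CXCL10 and CXCL11, the interferon-induced chemokines, had 0 counts in every library.

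Receptors for the ligands of the set were listed together with the interleukin-1 antagonist IL1RN. Of 10 tested, 5 were higher, 4 lower and 1 not called at day 8 against day 0. Among all tested genes, 36.0% were higher and 35.0% lower. CXCR1 and CXCR2, which bind CXCL8, are close paralogs, so the counting could have split reads between them. CXCR1 was at 3.309 ± 0.306 CPM at day 0, 0.8992 ± 0.355 at day 1 and 6.913 ± 0.0963 at day 8, a fall (-1.87 ± 0.267) and then a level above day 0 (1.06 ± 0.19). CXCR2 fell with it at day 1 (-2.51 ± 0.219) but was below day 0 at day 8 (-0.97 ± 0.185), at 3.752 ± 0.538 CPM. CCR6, the receptor of CCL20, had 1 count over the 14 libraries, CSF2RB had 1 and CSF3R had 0, so the signalling subunits for CSF2 and CSF3 were not detectable at this depth.

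CSF2 encodes GM-CSF and CSF3 encodes G-CSF, the growth factors of macrophages and granulocytes. CSF2 had 100 and 121 counts at day 0 (4.686 and 5.614 CPM), 18 and 19 at day 1 (0.8332 and 0.8406 CPM), 0 and 0 at day 2, 2 and 3 at day 3, 1 and 0 at day 4, and 0 in all 4 libraries of days 6 and 8. It was thus seen clearly in the day 0 and day 1 libraries alone, and later days had 0 to 5 counts each. The fall at day 1 was 6.15-fold (-2.61 ± 0.354, adjusted p = 1.32e-06). Set against the floor of 3 counts over both libraries of a day, CSF2 was at least 70.5-fold lower at day 2 and at least 76.1-fold lower at day 8 than at day 0 (adjusted p = 8.89e-10 and 4.26e-10), bounds that cover counting error only.

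CSF3 fell alongside it, at 15.09 and 17.12 CPM on day 0, 2.777 and 3.982 on day 1, 1.569 and 1.149 on day 2, 2.204 and 1.439 on day 3, 0.4312 and 0.9246 on day 4, 0.2292 and 0.4056 on day 6, and 0.04749 and 0.2152 on day 8. The day 0 libraries stood apart from all later ones, the day 1 libraries from all after them, and days 2 and 3 overlapped. It was 4.77-fold lower after 1 day (-2.25 ± 0.213, adjusted p = 1.73e-09) and had a log2 change of -6.84 ± 0.365 at day 8, where only 1 and 5 counts remained. The size of that last change rests on single libraries, at -6.19 without day 8 replicate 1 and -8.24 without day 8 replicate 2. Between days 3 and 4 the fall was called (-1.40 ± 0.37, adjusted p = 0.00291), though not with day 3 replicate 1 left out (-1.07, adjusted p = 0.0538) or with day 4 replicate 1 left out (-0.96, adjusted p = 0.0657), and it was -2.05 with day 4 replicate 2 left out, within a range of 5.17e-05 to 0.0657 over the alternatives. Among 7 other tested genes of the colony-stimulating and interleukin-1 families, 2 were higher, 4 lower and 1 not called at day 8. The shares of all tested genes were 36.0% higher and 35.0% lower. That list also named the processing protease CASP1, which was not found. CSF1, the macrophage factor made by mesenchymal cells, fell, from 282.9 ± 4.27 CPM at day 0 to 111.1 ± 3.04 at day 1 and 64.04 ± 1.78 at day 8 (-2.14 ± 0.0524).

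IL1A encodes interleukin-1 alpha, an alarm cytokine that epithelial cells store and release on injury. Its libraries held 16.73 and 17.81 CPM at day 0, 19.07 and 16.9 at day 1, 7.609 and 7.992 at day 2, 13.53 and 14.39 at day 3, 9.198 and 8.322 at day 4, 20.12 and 17.08 at day 6, and 15.62 and 12.78 at day 8. The libraries of days 2 and 4 were the lowest and did not overlap those of any other day, whereas days 0, 1 and 6 overlapped. From each sampled day to the next after day 1, IL1A changed direction: -1.20 ± 0.123 to day 2, 0.84 ± 0.126 to day 3, -0.67 ± 0.122 to day 4, 1.09 ± 0.12 to day 6 and -0.39 ± 0.111 to day 8. The first 4 of these steps were called in every alternative, with adjusted p of at most 0.00301. The last was called (adjusted p = 0.00526) but not with day 6 replicate 1 left out (-0.27, adjusted p = 0.116) or with day 8 replicate 2 left out (-0.25, adjusted p = 0.138), within a range of 0.00155 to 0.138. The alternation was not particular to IL1A. TAX1BP1, picked after its values were seen, shared it. From day 1 to day 8 its means were 154.9, 115.7, 140.1, 79.05, 121.4 and 53.62 CPM, in order of day. Effective library sizes after TMM scaling were above the library totals on days 1, 3 and 6 and below them on the other days. Whether these patterns are linked was not tested. How the alternation lines up with the renewal of the medium was also not tested. The sources used here do not give the hours between renewal and harvest.

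Between its ends IL1A differed little. The change at day 8 was -0.29 ± 0.112 (adjusted p = 0.0271, edgeR), and 3 alternatives ended the call, within a range of 0.0074 to 0.342. Leaving out day 0 replicate 2 gave -0.22 (adjusted p = 0.161), leaving out day 8 replicate 2 gave -0.15 (adjusted p = 0.342), and DESeq2 gave -0.28 (adjusted p = 0.0853). Neither day 6 nor day 1 was called against day 0 (0.11 ± 0.109 and 0.06 ± 0.109). IL1B, its neighbour in the RefSeq gene order and the form that macrophages secrete, was close to undetected. It had 3 and 2 counts at day 0, 3 and 1 at day 1, 0 in all 8 libraries of days 2, 3, 4 and 6, and 0 and 1 at day 8. Those 10 counts were too few for a test, so no change is stated.

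The receptor of both interleukins moved the other way from most of the set. IL1R1, the signalling receptor, went from 57.14 ± 0.304 to 140 ± 4.89 CPM at day 8 (1.29 ± 0.0612, adjusted p = 2.42e-15), and its partner IL1RAP from 16.7 ± 3.48 to 31.95 ± 1.35 (0.93 ± 0.0986) by way of 52.47 ± 0.497 at day 1. IL1RN, the secreted antagonist, fell from 15.11 ± 0.157 to 3.748 ± 0.456 CPM at day 1 (-2.01 ± 0.14) and was at 9.554 ± 0.727 at day 8 (-0.66 ± 0.123). IL1R2, the decoy receptor, was at 0.8852 ± 0.192 CPM at day 0 and 1.216 ± 0.0955 at day 2, and was lower at day 8 (-3.21 ± 0.649). Within the IL36 branch of the family, which lies in the same run of genes, IL36B fell at day 8 (-2.45 ± 0.183) and the antagonist IL36RN rose from 0.1162 ± 0.0981 to 1.727 ± 0.311 CPM (3.82 ± 0.662, or 3.17 without day 0 replicate 1 and 5.06 without day 0 replicate 2). A locus described as interleukin-36 alpha, LOC102181965, fell from 79.58 ± 1.42 to 6.375 ± 0.42 CPM (-3.64 ± 0.0947).

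PTGS2 encodes cyclooxygenase-2, the inducible enzyme that makes the precursor of the prostaglandins. It was at 98.73 and 115.7 CPM on day 0, 143.7 and 137.9 on day 1, 71.47 and 72.43 on day 2, 54.93 and 49.67 on day 3, 22.47 and 23.9 on day 4, 9.764 and 8.382 on day 6, and 7.361 and 5.94 on day 8. As with CXCL8, the day 1 libraries were the highest, and the levels then stepped down with no overlap between days. The rise of the first day was small (1.31-fold, 0.39 ± 0.0721, adjusted p = 3.91e-05), and at day 8 the level was 16.1-fold below day 0 (-4.02 ± 0.101, adjusted p = 9.14e-21). All 6 neighbouring pairs in the order of days were called. The last of them, day 8 below day 6 (-0.45 ± 0.136, adjusted p = 0.00813), was not called with day 6 replicate 1 left out (-0.34, adjusted p = 0.112) or with day 8 replicate 2 left out (-0.30, adjusted p = 0.156), within a range of 0.00107 to 0.156 over the alternatives.

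Genes around PTGS2 in prostaglandin metabolism split, with 5 of 11 tested higher and 5 lower at day 8 against day 0. Beside them, 36.0% of all tested genes were higher and 35.0% lower. PLA2G4A, which frees the arachidonic acid that PTGS2 uses and lies next to it in the RefSeq gene order, was named after its values were seen. It rose with PTGS2 at day 1, from 61.13 ± 3.69 to 143.6 ± 4.5 CPM (1.23 ± 0.0586), and was lower at day 8 at 19.17 ± 0.691 (-1.67 ± 0.0695). PTGES, the prostaglandin E synthase, fell at day 8 (-2.76 ± 0.0862), and TBXAS1, the thromboxane synthase, went from 268 counts at day 0 to 3 at day 8, a ratio of 92.2 (95% interval 31.2 to 450, counting error only). SLCO2A1, which carries prostaglandins into cells for breakdown, rose from 0.5368 ± 0.169 to 24.68 ± 0.148 CPM (5.51 ± 0.172), and HPGD, which inactivates them, had 0 counts at day 0 and 28 at day 8, at least 9.04-fold higher. The prostaglandin E receptor gene PTGER4 rose to 39.84 ± 1.13 from 26.43 ± 0.935 CPM (0.59 ± 0.0774). PTGER3, another of these receptors, had 0 counts at day 0 and 21 at day 8, at least 6.78-fold higher. PTGER2 was lower at day 8, at 0.09497 ± 0.134 against 0.7683 ± 0.291 CPM (-3.01 ± 0.845, adjusted p = 0.00296), a call that was lost with day 8 replicate 2 left out (-1.99, adjusted p = 0.0654, range 0.000818 to 0.0654).

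NFKBIA changed least between the ends. Its libraries held 114.9 and 115 CPM at day 0, 87.67 and 86.67 at day 1, 59.87 and 59.24 at day 2, 73.31 and 69.82 at day 3, 72.05 and 81.09 at day 4, 82.38 and 82.83 at day 6, and 116 and 112.2 at day 8. Day 2 was the lowest, and the day 8 libraries lay on either side of both day 0 libraries. It fell to day 1 (-0.40 ± 0.0576, adjusted p = 1.49e-06) and again to day 2 (-0.55 ± 0.0603), where it was 0.95 ± 0.0596 log2 units below day 0. It then rose to day 3 (0.26 ± 0.0607) and from day 6 to day 8 (0.47 ± 0.0577, adjusted p = 4.59e-07). At day 8 the difference from day 0 was -0.01 ± 0.0567 (adjusted p = 0.866, with a range of 0.699 to 0.978 over the alternatives), and its sign turned without day 0 replicate 2 and without day 8 replicate 2 (0.01 in each).

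TNFAIP3 declined unevenly, with 48.03 and 56.23 CPM at day 0, 49.02 and 49.55 at day 1, 43.7 and 43.91 at day 2, 35.44 and 38.55 at day 3, 40.29 and 43.55 at day 4, 30.44 and 30.06 at day 6, and 36.52 and 35.77 at day 8. The day 0 pair was wide apart and enclosed the day 1 pair, and day 6 was the lowest. At day 1 it was not called (-0.08 ± 0.0735), although it was with day 0 replicate 1 left out (-0.19, adjusted p = 0.0279), within a range of 0.0279 to 0.692. At day 8 it was 1.44-fold lower than at day 0 (-0.53 ± 0.0756, adjusted p = 1.22e-06). Of its 6 neighbouring pairs in the order of days 1 was called, day 8 above day 6 (0.26 ± 0.0793, adjusted p = 0.00971), and that call was lost with day 6 replicate 2 left out (0.25, adjusted p = 0.0534) or with day 8 replicate 1 left out (0.24, adjusted p = 0.0588), within a range of 0.00237 to 0.0588.

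**Figure D3:**
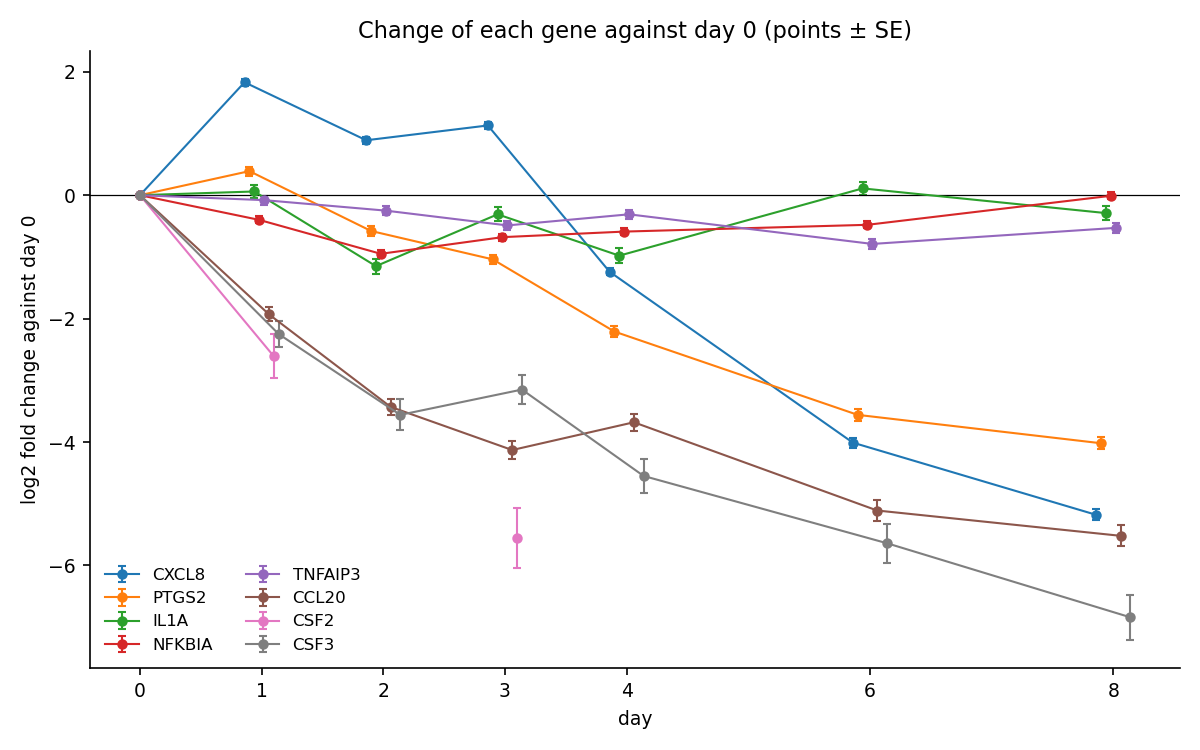
Log2 fold change against day 0 (vertical axis) by day (horizontal axis) for the 8 tested genes, as points ± SE; days on which CSF2 had 3 counts or fewer over both libraries are left out. CXCL8 and PTGS2 start above 0 (1.83 and 0.39 at day 1), CCL20, CSF2 and CSF3 start below it, and NFKBIA, IL1A and TNFAIP3 stay between -1.15 and 0.11.

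Step by step, the counts of the set were as follows. From day 0 to day 1, 2 of the 8 genes rose and 4 fell, beside 34.8% and 34.5% of all tested genes. From day 1 to day 2, 0 rose and 7 fell (25.3% and 23.1% of all), and the 1 not called was TNFAIP3 (-0.17, adjusted p = 0.0647). It was called lower with a replicate block (adjusted p = 0.0408), in a fit of the 2 days alone (adjusted p = 0.00978) and with day 0 replicate 1, day 0 replicate 2 or both left out, within a range of 0.00978 to 0.191. Day 3 turned part of the set back, with 3 genes higher than at day 2 (CXCL8, IL1A and NFKBIA) and 3 lower (21.2% and 24.1%). The lower ones were CCL20 (-0.70 ± 0.196), PTGS2 (-0.46 ± 0.0779) and TNFAIP3 (-0.24 ± 0.0761), and 2 of these calls rested on single libraries. Without day 3 replicate 1, CCL20 was at -0.49 (adjusted p = 0.0827, range 0.00337 to 0.0827), and TNFAIP3 was at -0.18 (adjusted p = 0.126, range 0.0029 to 0.126). TNFAIP3 also missed the threshold with day 2 replicate 1 left out (-0.25, adjusted p = 0.0529) and with day 2 replicate 2 left out (-0.24, adjusted p = 0.0571).

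In the later steps, 3 or 4 of the 8 genes fell and 0 to 2 rose. To day 4, 0 genes rose and 4 fell (28.8% and 21.6% of all). TNFAIP3, at 0.18 (adjusted p = 0.0538), was called higher at that step with a replicate block (adjusted p = 0.0333) and with day 0 replicate 1, day 0 replicate 2, both of these, day 3 replicate 2 or day 4 replicate 1 left out, within a range of 0.0213 to 0.325. NFKBIA was called higher there with day 4 replicate 1 left out (0.18, adjusted p = 0.0329, range 0.0329 to 0.918). To day 6, 1 gene, IL1A, rose and 4 fell (23.0% and 31.2%). NFKBIA, at 0.11 and not called, passed the threshold at that step under RLE size factors (0.17, adjusted p = 0.0182), by DESeq2 (0.17, adjusted p = 0.0288), in a fit of the 2 days alone (0.18, adjusted p = 0.026) and with day 0 replicate 2, both day 0 libraries or day 4 replicate 2 left out, within a range of 0.0182 to 0.787. From day 6 to day 8, NFKBIA and TNFAIP3 rose and CXCL8, IL1A and PTGS2 fell (25.6% and 23.2%). Those 5 calls became 3 without day 6 replicate 1 or without day 8 replicate 2, when the calls of IL1A and PTGS2 were lost.

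Each later day had most of the set below day 0, although these comparisons share the day 0 libraries. At day 2, 1 gene was higher and 7 were lower (32.9% and 31.6% of all tested genes), and at day 3 again 1 and 7 (35.9% and 35.0%), with CXCL8 as the higher one on both days. At day 4, 0 were higher and 8 lower (33.9% and 33.5%), and at day 6, 0 were higher, 7 lower and IL1A not called (37.9% and 37.5%). Of these calls, the day 3 fall of IL1A (-0.31 ± 0.111, adjusted p = 0.0177) was lost with day 0 replicate 2 left out (-0.26, adjusted p = 0.0962) or day 3 replicate 1 left out (-0.26, adjusted p = 0.0969), and its range was 0.0105 to 0.0969. The day 2 fall of TNFAIP3 (-0.25 ± 0.0747) was lost with day 0 replicate 2 left out (-0.15, adjusted p = 0.102), and its range was 0.000222 to 0.102.

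Against the day 1 libraries rather than those of day 0, the set gave a similar picture at day 8. All 8 tested genes were called, 7 lower and 1 higher, beside 35.0% and 31.8% of all tested genes. The 1 higher gene was NFKBIA (0.39 ± 0.0575). The IL1A call in that comparison (-0.34 ± 0.112, adjusted p = 0.00928) ended in 3 alternatives, within a range of 0.00309 to 0.191. It was at -0.26 (adjusted p = 0.115) with day 1 replicate 1 left out, at -0.20 (adjusted p = 0.191) with day 8 replicate 2 left out, and at -0.30 (adjusted p = 0.0634) by DESeq2.

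The NF-kB factors themselves were measured as well. RELA, the main activating subunit, fell from 169 ± 12.6 CPM at day 0 to 94.33 ± 5.62 at day 1 and 80.91 ± 0.391 at day 8 (-1.06 ± 0.0659 at day 8, adjusted p = 5.02e-13). RELB and NFKB2, the pair of the alternative pathway, fell further at day 8, by 1.88 ± 0.105 and 1.49 ± 0.0714 on the log2 scale. NFKB1, which encodes the p50 precursor, fell in the first day (-0.68 ± 0.0644) but was back at 109.9 ± 1.46 CPM by day 8, against 119.2 ± 1.9 at day 0 (-0.12 ± 0.0629, adjusted p = 0.0996). REL, a subunit best known in lymphocytes, rose from 0.9548 ± 0.29 CPM at day 0 to 4.567 ± 0.174 at day 1 (2.25 ± 0.31). It stood at 2.112 ± 0.969 CPM at day 2 and 1.918 ± 0.947 at day 4. At day 8 it was at 4.555 ± 0.476 CPM (2.24 ± 0.31 against day 0, -0.01 ± 0.237 against day 1). Among 15 tested kinases and subunits, 3 were higher, 8 lower and 4 not called at day 8, beside 36.0% of all tested genes higher and 35.0% lower.

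A further list held other inhibitors of the pathway together with nuclear members of the IkB family, which are not all plain inhibitors. All 12 tested were called at day 8, with 9 lower and 3 higher, beside 35.0% and 36.0% of all tested genes. NFKBIE, a second cytoplasmic inhibitor, fell by 1.64 ± 0.143 on the log2 scale, and NFKBID and BCL3, nuclear members of the IkB family, by 1.45 ± 0.26 and 1.10 ± 0.113. TNIP1, an A20-binding partner, rose at day 1 (0.58 ± 0.0505) before it fell at day 8, from 235.7 ± 16.5 to 83.81 ± 1.28 CPM (-1.49 ± 0.0537). CYLD, a deubiquitinase that restrains the pathway, and N4BP1 were higher at day 8 (0.82 ± 0.0719 and 1.01 ± 0.064). Of the 12 calls, the one with the highest adjusted p was TAX1BP1 (-0.19, adjusted p = 0.0275), which was lost with day 0 replicate 2 left out (-0.05, adjusted p = 0.62), with day 8 replicate 1 left out (-0.12, adjusted p = 0.28) and in a fit of days 0 and 8 alone (-0.20, adjusted p = 0.0655), within a range of 0.00118 to 0.62.

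Upstream of the factors, 5 of 24 tested receptors and adaptors were higher, 13 lower and 6 not called at day 8, beside 36.0% of all tested genes higher and 35.0% lower. TNF, a cytokine that triggers the pathway, went from 2.844 ± 0.02 CPM at day 0 to 0.2716 ± 0.00869 at day 1 (-3.36 ± 0.514), and its second receptor TNFRSF1B from 30 ± 1.07 to 2.683 ± 0.101 at day 8 (-3.48 ± 0.149). TLR4, the receptor of bacterial lipopolysaccharide, fell from 7.155 ± 0.51 to 0.3124 ± 0.106 CPM (-4.48 ± 0.341). TRAF5, an adaptor of the TNF receptor family, rose from 1.19 ± 0.173 to 22.8 ± 0.656 CPM (4.25 ± 0.187).

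Of 20 other known NF-kB targets tested, 1 was higher, 12 were lower and 7 were not called at day 8, beside those same shares. At day 1 the list had 7 higher and 9 lower, beside 34.8% and 34.5% of all tested genes. TNFAIP6, a hyaluronan-binding protein of inflamed matrix, fell from 11.4 ± 0.113 to 0.1766 ± 0.115 CPM (-5.94 ± 0.285, or -6.83 without day 8 replicate 2), and LIF and IL6, cytokines of the interleukin-6 family, were lower too (-6.71 ± 0.0969 and -5.56 ± 0.102). LCN2, an iron-scavenging protein of epithelia, was the 1 that rose, from 1 count at day 0 to 35 at day 8, a ratio of 33.9 (95% interval 5.7 to 1380, counting error only). A locus described as serum amyloid A protein, LOC102168428, fell from 1814 ± 110 to 182.2 ± 3.55 CPM (-3.32 ± 0.0564), while a locus described as vascular cell adhesion protein 1, LOC102174895, rose from 0.1396 ± 0.065 to 5.647 ± 0.0724 CPM (5.28 ± 0.409).

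**Figure D4:**
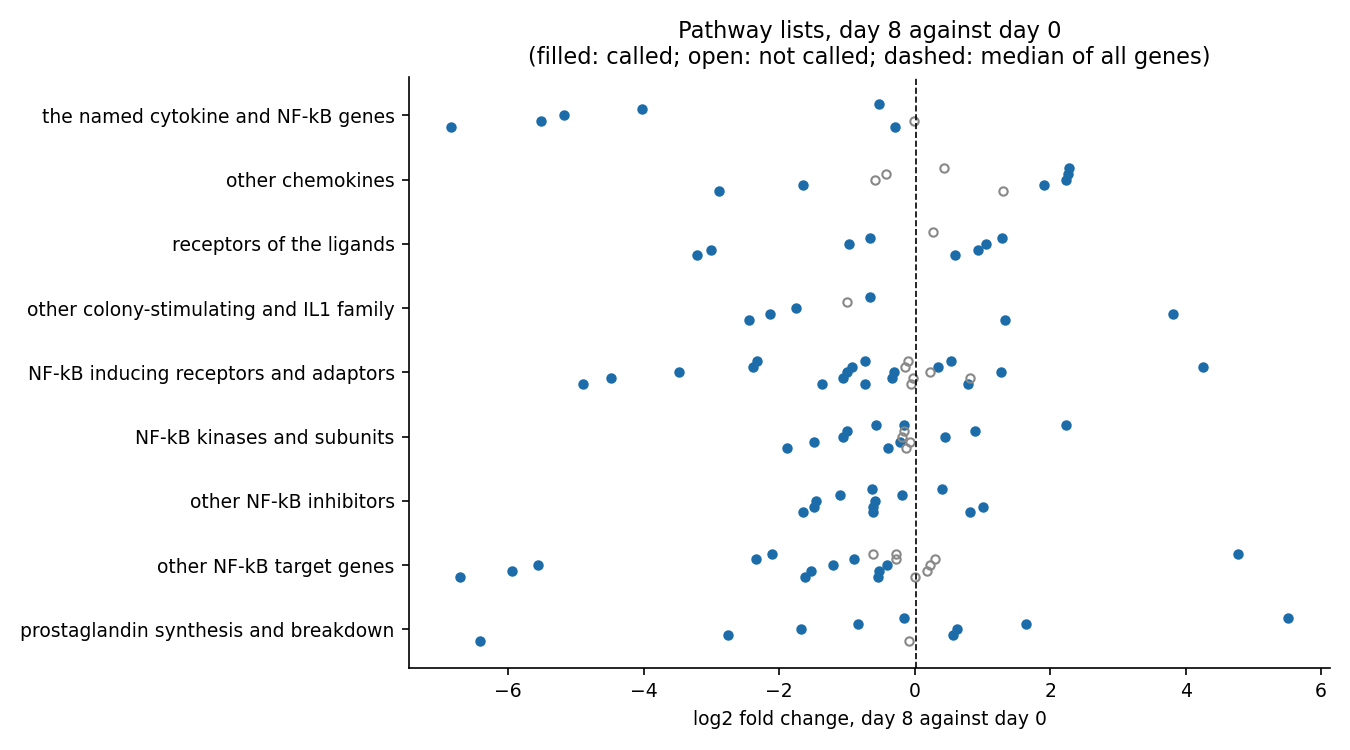
Log2 fold change at day 8 against day 0 (horizontal axis) for each tested gene of 9 lists (rows); filled points were called, open points were not, and the dashed line is the median of all genes (0.02). CSF2, PTGER3 and HPGD, with 0 counts on 1 of the days, are left out; the set described here spans -6.84 to -0.01, and each of the other lists has called genes on both sides.

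Markers of cell types changed as well, and not all the same way. Of 17 leukocyte markers found, 6 could be tested, with 4 lower and 1 higher at day 8, and their summed level went from 175.1 to 177.5 CPM at day 0 through 73.49 to 76.01 at day 1 to 21.87 to 22.22 at day 8. CD14, the lipopolysaccharide co-receptor, was at 129 ± 0.146 CPM of that sum at day 0 and 8.328 ± 0.0929 at day 8. LAPTM5, also on that list, went from 301 counts at day 0 to 3 at day 8, a ratio of 104 (95% interval 35.1 to 505, counting error only). CD79A had 20 counts at day 0 and 1 at day 8, and CSF1R had 12 and 2. Other scarce markers had more counts at day 8. ITGAM had 3 counts at day 0 and 11 at day 8 (ratio 3.55, 95% interval 0.938 to 19.8, counting error only), and CD3E had 0 and 5. PTPRC, which encodes the pan-leukocyte antigen CD45, had 0 counts in all 14 libraries, as did AIF1, TYROBP, MS4A1 and LYZ. The 8 endothelial markers summed to 30.11 to 31.25 CPM at day 0 and 4.654 to 6.371 at day 8. Of the 5 that could be tested, 3 were lower, 1 was not called and 1, KDR, was higher, from 0 counts at day 0 to 33 at day 8 (at least 10.7-fold). Fibroblast markers stood at 33790 to 34290 CPM at day 0, 44160 to 44190 at day 1 and 18170 to 18500 at day 8. Of these 10, 9 were lower and 1 higher at day 8 against day 0. Basal epithelial markers stood at 9999 to 10950 CPM at day 0, 3898 to 3916 at day 1 and 43920 to 44800 at day 8. Of these 9, 8 were higher and 1 was not called at day 8 against day 0. Over all tested genes, 36.0% were higher and 35.0% lower in that comparison. The part of these shifts in the results above was not tested.

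Over the 14 libraries, the 8 tested genes differed in how far their patterns were alike, given here as a description of log2(CPM + 1) values that share libraries and days. CXCL8 and PTGS2 had a Pearson r of 0.94. CCL20, CSF2 and CSF3 had 0.94 to 0.95 with each other. Between these groups r was lower, at 0.32 (CSF2), 0.57 (CCL20) and 0.59 (CSF3) with CXCL8 and 0.58, 0.79 and 0.78 with PTGS2. TNFAIP3 had 0.86 with CCL20 and 0.83 with PTGS2. IL1A was near 0 with PTGS2 (0.00) and highest with NFKBIA (0.62). Among 13095 genes with a mean of at least 1 CPM, the most alike to CCL20 was LIF (0.993), to CSF2 SLCO4A1 (0.992) and SOCS3 (0.988), to CSF3 RASGRF1, KHDRBS3 and IL11 (0.984 each), and to CXCL8 DLC1 (0.988). PTGS2 was closest to LOC102189116, described as a prolyl 4-hydroxylase subunit (0.991), VEGFC (0.989) and IL6 (0.988). The other 3 genes had weaker best matches: NFKBIA with DAZAP1 (0.966), TNFAIP3 with NAV1 (0.964) and IL1A with SFPQ (0.956).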

How the data were processed

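RNA from 14 libraries had been depleted of ribosomal RNA and made into TruSeq libraries, per the labels' protocols. The authors deposited 1 estimated count per gene and library; 90% of the values, zeros included, and 83.1% of those above 0 are exactly whole. The submitters' processing notes list DESeq2 1.16.1, FastQC 0.10.1 and HTSeq, without roles. Aligner, genome build and strand setting were unstated in the sources used here, so overlapping, antisense and near-identical genes may share counts, and no coordinates or sequences are printed. Gene lengths are the deposited ones. Neighbouring genes come from the RefSeq table of assembly ARS1.2.

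Estimated counts were rounded. 1 emptied line was left out. edgeR 4.0.16 (limma 3.58.1, R 4.3.3) was run with TMM scaling, filterByExpr by day and a 2-sided quasi-likelihood F test on all 14 libraries with a group per day (7 residual degrees of freedom), with Benjamini-Hochberg adjustment over 15712 genes. Folds are ratios of mean CPM, values with ± beside CPM are SD (n = 2), and SE is the absolute log2 fold change over the square root of F. It understates the error where a day has few counts. Intervals and floors hold for counting error only, because reads lacking molecular identifiers may be copies of 1 molecule. The members and lists were chosen with earlier results of these data known, and the loci named by description after the file was seen. From each list, up to 4 called genes with the largest change at day 8 were named, plus subunits, inhibitors and receptors, and otherwise as stated. The fit was also run on counts simulated from its own estimate of spread, with few genes changed. That run cannot test the scaling or the replicate spread of these data. Alternatives were other size factors (RLE), filters, DESeq2 1.42.0, a replicate block, fits of only the 2 days compared, and leaving out libraries.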

Additional observations from a re-analysis of the deposited data

How the results depend on the processing

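Under the alternatives run, each count of genes or of the set's calls stayed within 1.5 times its value, except that the set's calls at day 8 against day 6 ranged from 3 to 5 when single libraries were left out. No reported change turned its sign outside the runs that left out 1 library. In those, 4 small differences did, with ranges that cross 0 and no call on the reversed side: IL1A at day 1 against day 0 from -0.03 to 0.14, IL1A at day 6 against day 0 from -0.02 to 0.22, TNFAIP3 at day 1 against day 0 from -0.19 to 0.04, and NFKBIA at day 8 against day 0 from -0.04 to 0.01. The cause was not tested. With a replicate block the set had 6 calls at day 1 against day 0 and 7 at day 8 against day 0, as without it, and 11023 genes in place of 11147 at day 8. It raised the set's calls from 7 to 8 at day 2 against day 1 and from 4 to 5 at day 4 against day 3, by TNFAIP3 each time, and the called pairs of neighbouring days in the order of levels from 24 to 26. Same-numbered libraries showed no shared deviation from their day means, with correlations of -0.167 to 0.0863 over 21 pairs of days. That check cannot tell whether they came from 1 culture or batch. RLE scaling moved the median of all genes by at most 0.0587. Leaving out both day 0 libraries, chosen after the data were seen, kept each count of calls among later days within 1.5 times. Depth limits CSF2 after day 1, CSF3 at day 8 and IL1B throughout.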
